A study of Mus musculus with 6 samples.

Results

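The genes that encode the oxygen-sensing machinery were examined in cancer-associated fibroblasts (CAFs) of mouse colonic adenomas. They were 9 of the 49548 genes in the deposited table, matched by gene name: the hypoxia-inducible factor (HIF) α subunits Hif1a, Epas1 and Hif3a, their partner Arnt, the prolyl hydroxylases Egln1, Egln2 and Egln3, the asparaginyl hydroxylase Hif1an and the ubiquitin ligase component Vhl. Tumors were induced in C57/BL6 mice with azoxymethane and dextran sodium sulfate (AOM/DSS), a model of colitis-associated cancer, and all the mice carried Col6a1-cre and the Rosa26-mTmG reporter, so that cells with Cre activity turn from Tomato to GFP fluorescence. Cells negative for CD45, EpCAM, CD31 and Ter119 were sorted into 3 GFP+ samples (Col6a1+ CAFs) and 3 Tomato+ samples (Col6a1− CAFs), and their RNA was sequenced from the 3′ end; each sample was a pool of tumors from several mice, the age at collection was not given in the labels, and p-values measure the spread between these pools. The Col6a1 promoter that drives Cre is active in PDGFRα-high fibroblasts and in perivascular cells of the mouse intestine, so GFP marks more than 1 cell type, and Tomato marks the remaining lineage-negative cells.

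HIFs are transcription factors made of an oxygen-regulated α subunit and a constitutive β subunit, ARNT. In oxygenated cells the EGLN enzymes hydroxylate prolines of the α subunit, the product of Vhl binds the hydroxylated form and delivers it to ubiquitination and degradation, and the enzyme encoded by Hif1an hydroxylates an asparagine that otherwise contacts the coactivators CBP and p300. When oxygen falls the α subunit accumulates, pairs with ARNT and binds a short core motif near its target genes, among them genes of glycolysis, blood vessel growth and collagen modification; most of this control acts on the protein, which RNA counts do not show.

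The 6 libraries held between 3039152 and 3425249 normalized counts, that is, read counts scaled by the authors and deposited as whole numbers. The library of Col6a1+ replicate 1 had 14530 genes detected, against 18770 to 20511 in the others. The labels were checked on marker genes. Pericyte and smooth muscle (mural) markers summed to 42545 to 91813 normalized counts in Col6a1+ CAFs and to 1173 to 2206 in Col6a1− CAFs, with 8 of 8 called higher, and fibroblast markers to 18322 to 31608 and 5080 to 9144, with 3 of 8 called higher and 1, Cd34, called lower. Epithelial markers, from cells the sort was set to exclude, summed to 5263 to 5545 in Col6a1+ CAFs and to 18681 to 30172 in Col6a1− CAFs, with 8 of 10 called lower; Epcam itself had 615 to 1074 and 3107 to 4129. Endothelial markers summed to 271 to 531 and 388 to 772, and immune markers to 23 to 61 and 247 to 431. Called means an adjusted p under 0.05 by limma, described below, and of all genes 2.66% were called higher and 1.96% lower. Among the fibroblast markers Pi16, not called, averaged 1.67 normalized counts in Col6a1+ and 27 in Col6a1− CAFs. The marker sums moved with the same contrast as the genes below, and their part in the results was not tested.

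Of the 9 genes, Epas1 was higher in Col6a1+ CAFs, and the other 8 did not pass an adjusted p of 0.05 by limma, a linear model fitted to the log2 values of all 26402 genes with a count. Among all genes tested, 4.62% passed, 2.66% as higher and 1.96% as lower in Col6a1+ CAFs, so that 1 higher gene of 9 and 0 lower are small numbers to set against these shares. At an unadjusted p under 0.05 the count was again 1 higher and 0 lower, beside 6.63% and 9.4% of all genes, and limma-voom called 1 higher and 0 lower. Without Col6a1+ replicate 1 the members at an unadjusted p under 0.05 numbered 5 (Arnt, Epas1 and Vhl higher, Egln3 and Hif1an lower). All genes under that threshold in this fit were 2501 higher and 2566 lower of 26150. With array quality weights the members numbered 3 (Epas1 higher, Egln3 and Hif1an lower), beside 2412 higher and 2867 lower of 26402 genes. Epas1 was also the sole member whose Col6a1+ and Col6a1− libraries did not overlap; over all genes the lowest Col6a1+ library lay above the highest Col6a1− library in 7.91%, and the highest Col6a1+ library lay below the lowest Col6a1− library in 11.6%. The median log2 fold change (Col6a1+ over Col6a1−, on log2 of the normalized count plus 1, which understates changes of genes with few counts) was 0.03 for the 9 members, −0.27 for all genes tested and −0.15 for the 13515 that averaged at least 10 counts.

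**Figure D1:**
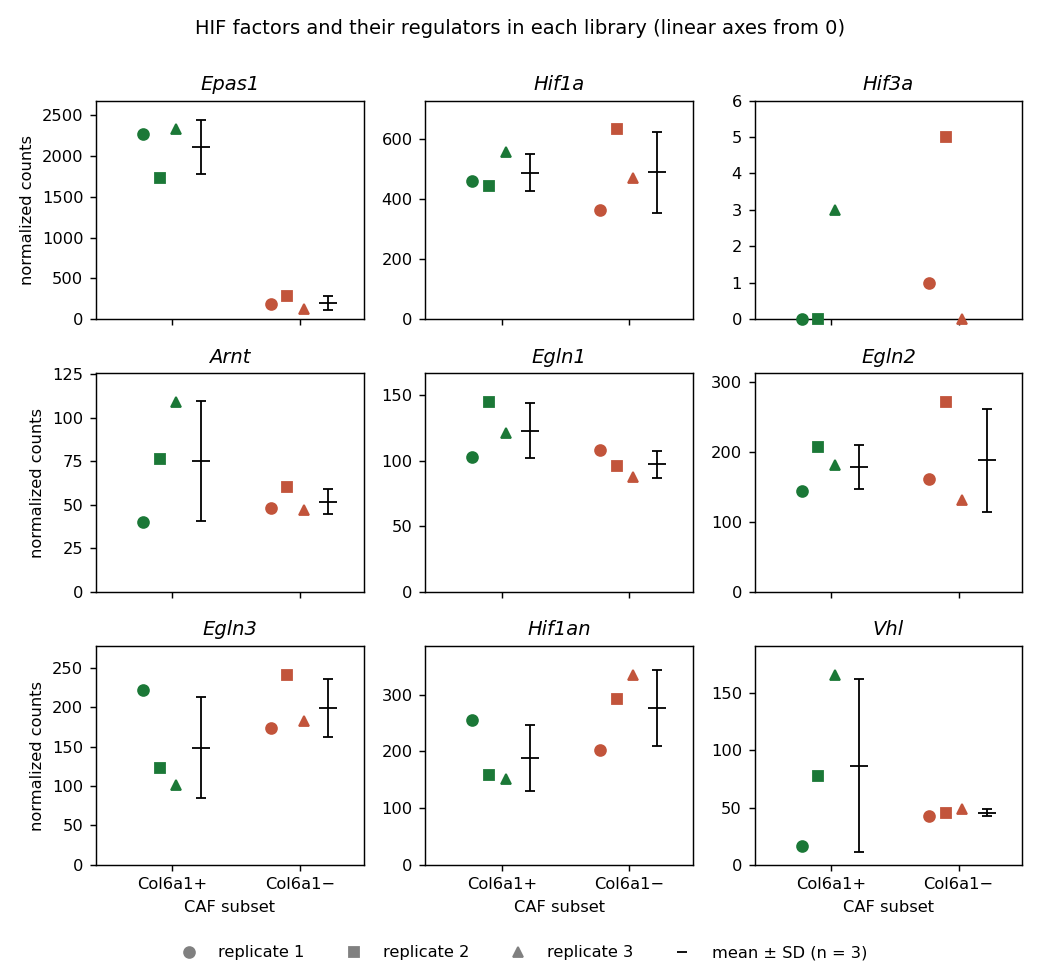
Normalized counts of the 9 genes in each of the 6 libraries, with 1 panel per gene and its own linear axis from 0. Points are single libraries (3 Col6a1+ and 3 Col6a1− CAFs) and bars are the mean with 1 SD, left out for Hif3a. Epas1 has its Col6a1+ libraries between 1736 and 2331 and its Col6a1− libraries between 125 and 288; in the other panels the groups overlap.

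Among the α subunits, Epas1 (ENSMUSG00000024140, chr17:86753907-86833410, plus strand, build mm10) encodes HIF-2α, known for its high mRNA levels in endothelial cells and in perivascular cells. It had 2269, 1736 and 2331 normalized counts in Col6a1+ replicates 1 to 3, and 182, 288 and 125 in Col6a1− replicates 1 to 3. All 3 Col6a1+ libraries were high, and the lowest of them was 6.03 times the highest Col6a1− library. The means were 2112 ± 327 and 198 ± 82.7 (SD, n = 3 each), a 10.6-fold difference. Its log2 fold change was 3.48 (SE 0.34, 95% confidence interval 2.72 to 4.23), with an adjusted p of 8.62e-04 by limma with Benjamini-Hochberg adjustment, the 26th smallest p of the 26402 genes. Over the alternatives its adjusted p lay between 1.52e-04 and 0.0612. It missed the threshold when replicate numbers were blocked (adjusted p = 0.0612, limma, where no gene passed) and without Col6a1− replicate 1 (adjusted p = 0.0609, limma), and passed with the block over genes with a mean of at least 10 counts (adjusted p = 0.00151, limma); its log2 fold change stayed between 3.19 and 3.79. In RNA from sorted populations, fewer cells that express a gene and less of its RNA per cell cannot be told apart.

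Hif1a (ENSMUSG00000021109, chr12:73901375-73947530, plus strand) encodes HIF-1α, the α subunit present in most cell types. It had 459, 444 and 558 normalized counts in Col6a1+ CAFs and 363, 633 and 469 in Col6a1− CAFs. The highest and the lowest library were both Col6a1− samples, and the groups overlapped. The means were 487 ± 61.9 and 488 ± 136 (SD, n = 3 each), with a log2 fold change of 0.03 (SE 0.30) and an adjusted p of 0.981 by limma. The 95% interval of the change, −0.64 to 0.69 on the log2 scale, reached from a ratio of 0.641 to a ratio of 1.62. Changes within these bounds are not excluded by these values. The interval does not give the smallest change that could be called with 3 libraries a group.

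Hif3a (ENSMUSG00000004328, chr7:17031507-17062427, minus strand), whose splice forms include inhibitors of the other α subunits, had 0, 0 and 3 normalized counts in Col6a1+ CAFs and 1, 5 and 0 in Col6a1− CAFs. The groups overlapped and 3 of the 6 libraries were at 0, so no fold of Hif3a is read from these values.

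The balance of Epas1 and Hif1a within a library was read as the ratio of their levels per kilobase of gene model. Epas1 had 10.3, 8.17 and 8.72 times the level of Hif1a in Col6a1+ replicates 1 to 3, and 1.05, 0.950 and 0.557 times in Col6a1− replicates 1 to 3. The 3 Col6a1+ ratios were all high, those of Col6a1− CAFs were 1.05 or lower, and the groups did not overlap. Reads from the 3′ end do not scale with transcript length, and without the division by length the ratios of normalized counts were 4.94, 3.91 and 4.18 against 0.501, 0.455 and 0.267. The distance between the groups does not depend on length: the log2 ratios of counts averaged 2.11 ± 0.17 and −1.34 ± 0.49 (SD, n = 3 each), a difference of 3.45. These ratios hold the Epas1 difference already described and are given without a test.

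**Figure D2:**
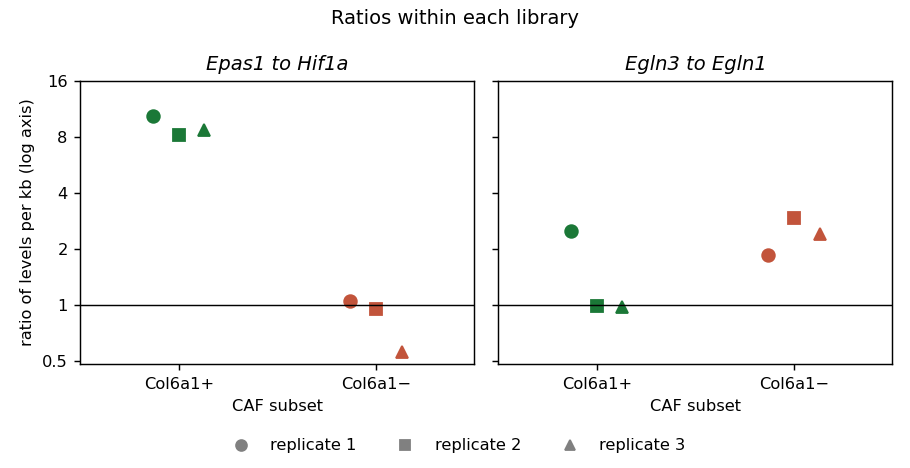
Ratio of levels per kilobase within each library, on a log axis, for Epas1 to Hif1a and for Egln3 to Egln1. Points are the 3 Col6a1+ and 3 Col6a1− libraries, and the line at 1 marks equal counts per kilobase. Reads from the 3′ end do not scale with length, so this line need not mark equal expression. Without the division by length, Epas1 to Hif1a is 3.91 to 4.94 in the Col6a1+ libraries and 0.267 to 0.501 in the Col6a1− libraries. The Epas1 to Hif1a ratio is 8.17 to 10.3 in the Col6a1+ libraries and 0.557 to 1.05 in the Col6a1− libraries, whereas the Egln3 to Egln1 ratios overlap (0.972 to 2.51 and 1.87 to 2.92).

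Arnt (ENSMUSG00000015522, chr3:95434388-95497240, plus strand), the β subunit that pairs with HIF α subunits to bind DNA, had 40, 76 and 109 normalized counts in Col6a1+ CAFs and 48, 60 and 47 in Col6a1− CAFs. Col6a1+ replicate 1 was the lowest library of all and replicate 3 the highest, so the groups overlapped. The log2 fold change was 0.43 (SE 0.48, 95% interval −0.65 to 1.497, adjusted p = 0.642 by limma).

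The prolyl hydroxylases did not separate the populations. Egln1 (ENSMUSG00000031987, chr8:124908587-124949324, minus strand) encodes PHD2, the main oxygen sensor of most cells, and had 103, 145 and 121 normalized counts in Col6a1+ and 108, 96 and 88 in Col6a1− CAFs. A single Col6a1+ library, replicate 1, lay within the Col6a1− range, and the log2 fold change was 0.33 (SE 0.35, 95% interval −0.45 to 1.11, adjusted p = 0.642 by limma). Egln2 (ENSMUSG00000058709, chr7:27158658-27166802, minus strand) encodes PHD1 and had 145, 208 and 182 normalized counts against 161, 272 and 132. Its Col6a1+ libraries all lay inside the Col6a1− range, with a log2 fold change of −0.03 (SE 0.37, 95% interval −0.84 to 0.79, adjusted p = 0.990 by limma). Egln3 (ENSMUSG00000035105, chr12:54178981-54203860, minus strand) encodes PHD3, itself a known HIF target, and had 222, 123 and 101 normalized counts against 173, 241 and 182. Replicate 1 of Col6a1+ CAFs stood with the Col6a1− libraries and the other two lay below them. The log2 fold change of Egln3 was −0.48 (SE 0.38, 95% interval −1.33 to 0.36, adjusted p = 0.603 by limma).

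Hif1an (ENSMUSG00000036450, chr19:44562850-44576274, plus strand), which encodes FIH, had 255, 158 and 152 normalized counts in Col6a1+ CAFs and 203, 292 and 335 in Col6a1− CAFs. As for Egln3, Col6a1+ replicate 1 lay within the Col6a1− range and the other two below it. The log2 fold change was −0.56 (SE 0.35, 95% interval −1.34 to 0.21, adjusted p = 0.488 by limma). Vhl (ENSMUSG00000033933, chr6:113623959-113631633, plus strand), the substrate receptor of the ligase, had 16, 78 and 166 normalized counts in Col6a1+ CAFs and 43, 45 and 49 in Col6a1− CAFs. The Col6a1+ libraries spread over both sides of the Col6a1− ones, with a coefficient of variation of 87.0% against 6.69%, and the log2 fold change was 0.38 (SE 0.73, 95% interval −1.24 to 2.01, adjusted p = 0.782 by limma). Without Col6a1+ replicate 1, the library with the fewest genes detected, the adjusted p by limma was 0.241 for Arnt, 0.144 for Vhl, 0.176 for Egln3, 0.204 for Hif1an and 0.0204 for Epas1.

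**Figure D3:**
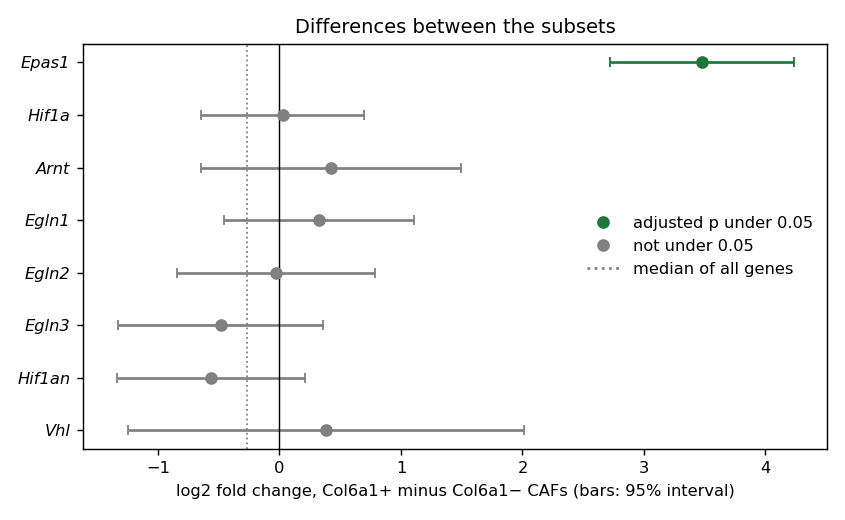
Log2 fold change (Col6a1+ over Col6a1− CAFs) of 8 of the 9 genes, with points for the fitted change and bars for its 95% confidence interval from limma over 3 libraries a group, and a dotted line at the median of all genes tested (−0.27); Hif3a, at 5 counts or fewer in every library, is left out. The interval of Epas1 (2.72 to 4.23) lies above 0 and the other 7 intervals include 0.

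Levels of different genes were compared per kilobase of gene model, although 3′ reads do not scale with length. In Col6a1+ CAFs the order of mean normalized counts per kilobase was Epas1 (593 ± 91.8, SD, n = 3), Hif1a (65.5 ± 8.33), Egln2 (59.3), Egln3 (51.3), Egln1 (36.4), Vhl (26.0), Hif1an (24.7), Arnt (6.78) and Hif3a (0.121). Epas1 stood clear of the rest and the next 3 genes lay within the spread of the libraries. In Col6a1− CAFs the order began with Egln3 (68.6), Hif1a (65.6 ± 18.3), Egln2 (62.7) and Epas1 (55.7 ± 23.2), 4 levels that did not differ beyond their spread, followed by Hif1an (36.3), Egln1 (28.8), Vhl (13.7), Arnt (4.67) and Hif3a (0.242). The order depends on the division by length: on the normalized counts themselves, Hif1a (363 to 633) lay above every library of Hif1an (203 to 335), Egln3 (173 to 241), Egln2 (132 to 272) and Epas1 (125 to 288) in Col6a1− CAFs, and Epas1 still led in Col6a1+ CAFs. The Egln3 to Egln1 ratio per kilobase was 2.51, 0.988 and 0.972 in Col6a1+ replicates 1 to 3 and 1.87, 2.92 and 2.41 in Col6a1− replicates 1 to 3, and the groups overlapped because of Col6a1+ replicate 1. Gene models that overlap members added little: Gm15283, antisense to Hif1a, had at most 10 normalized counts in any library, Gm42672 within Arnt at most 4, and 4833404L02Rik (antisense to Hif3a) and Cyp2t4 (beside Egln2) at most 1.

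The genes whose log2 values over the 6 libraries were most like those of Epas1, out of 13514 with a mean of at least 10 counts, were Marcks (Pearson r = 0.999), Esam (r = 0.997) and Vstm4 (r = 0.997). Each r is over 6 points that fall into the same pair of populations, and is given as a description. Marcks, which encodes a substrate of protein kinase C, averaged 1988 normalized counts in Col6a1+ and 360 in Col6a1− CAFs, Esam, an adhesion molecule of endothelial cells, averaged 1013 and 61.7, and Vstm4 averaged 473 and 50.0. Epas1 is also known in endothelial cells. Of the 10 endothelial markers 9 had a fitted log2 fold change below 0, beside 15514 of all 26402 genes tested. Of these 9, 0 were called by limma or limma-voom. At an unadjusted p under 0.05 by limma, 3 were lower, beside 9.4% of all genes. Emcn, fitted below 0, had the higher mean count in Col6a1+ CAFs (25.3 against 15.7). By limma 1 marker was called higher, beside 2.66% of all genes. That marker was Tie1, with 220, 56 and 152 normalized counts in Col6a1+ CAFs and 1, 7 and 21 in Col6a1− CAFs (adjusted p = 0.0270 by limma). Pecam1, which encodes CD31, had 0, 21 and 27 against 13, 64 and 44 (adjusted p = 0.484 by limma), and Cdh5 had 10, 4 and 9 against 39, 24 and 24 (adjusted p = 0.252 by limma). The part of endothelial or mural cells in the Epas1 difference was not tested.

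The remaining machinery of the pathway was read from a list of 14 genes, including the ligase subunits Cul2, Rbx1, Tceb1 and Tceb2, the coactivators Crebbp and Ep300, and Arnt2. None of the 14 passed the adjusted test by limma or limma-voom, and by limma 2.66% of all genes passed as higher and 1.96% as lower. Their median log2 fold change was −0.12, beside −0.27 over all genes. At an unadjusted p under 0.05, 1 was higher and 0 lower, beside 6.63% and 9.4% of all genes. That 1 gene, chosen here after its values were seen, was Cited2, which encodes a competitor of HIF-1α for p300. It had 179, 260 and 177 normalized counts in Col6a1+ CAFs against 122, 116 and 102, so its groups did not overlap (adjusted p = 0.237 by limma). Among other transcription factors of the same bHLH-PAS family, 10 of 13 were tested (Sim1, Sim2 and Npas1 had no count), and 0 passed by limma, 2 at an unadjusted p under 0.05 and 1 by limma-voom, all of these higher. Of all genes, 2.66% were higher by limma and 6.63% at the unadjusted threshold, and limma-voom called 771 of 26402 higher. The median log2 fold change of the 10 was 0.82 and 9 of 10 were above 0, beside −0.27 and 10884 of 26402 over all genes. Npas4, named for its low counts (0, 3 and 1 against 0, 0 and 0), gives no fold. Without it, and with a floor of 3 counts, the median was 0.80 over 9 genes. The gene that passed by limma-voom, named after its values were seen, was Ahrr, the aryl hydrocarbon receptor repressor, with 17, 11 and 7 normalized counts against 0, 2 and 0 (adjusted p = 0.113 by limma and 0.0336 by limma-voom).

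A list of 40 known HIF target genes was set beside these values, of which 39 were tested (Epo had no count). In Col6a1+ CAFs, 3 were higher, 1 was lower and 35 did not pass, against the 2.66% and 1.96% of all genes called in each direction; 14 of the log2 fold changes were above 0 and 25 below, with a median of −0.34 beside −0.27 over all genes. Most of the targets are well expressed, and among genes with a mean of at least 10 counts 5.15% were called higher and 3.67% lower, with a median of −0.15. The groups did not overlap for 5 higher and 6 lower genes of 39, beside 14.2% and 17.6% of genes with that mean and 7.91% and 11.6% of all genes, so these counts do not set the list apart. The 3 that rose modify collagen: P4ha1 and P4ha2 encode catalytic subunits of collagen prolyl 4-hydroxylase, and Plod2 a lysyl hydroxylase. The 1 that fell, Aldoc, encodes an aldolase of glycolysis.

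P4ha1 had 146, 192 and 152 normalized counts in Col6a1+ CAFs and 23, 55 and 47 in Col6a1− CAFs, and its log2 fold change was 2.02 (SE 0.44, adjusted p = 0.0283 by limma). P4ha2 had 109, 160 and 245 against 59, 28 and 44, with a log2 fold change of 1.93 (SE 0.46, adjusted p = 0.0401 by limma). Plod2 had 228, 134 and 124 against 56, 53 and 43, with a log2 fold change of 1.61 (SE 0.40, adjusted p = 0.0491 by limma). For each of these 3 genes the groups did not overlap. Aldoc went the other way, with 19, 11 and 23 normalized counts in Col6a1+ and 194, 128 and 187 in Col6a1− CAFs; the groups did not overlap, and its log2 fold change was −3.23 (SE 0.47, adjusted p = 0.00446 by limma). When replicate numbers were blocked, limma gave an adjusted p of 0.0905 for P4ha1, 0.141 for P4ha2, 0.107 for Plod2 and 0.0612 for Aldoc, so that no target gene passed, and over all alternatives it ranged from 0.00964 to 0.136, 0.00668 to 0.194, 0.0237 to 0.182 and 0.00108 to 0.0902 in the same order. Over genes with a mean of at least 10 counts the blocked values were 0.0153, 0.0278, 0.0260 and 0.00386 in that order (limma), and all 4 passed. Fits with 1 library fewer called fewer genes overall (11 to 453 higher). In these fits P4ha1 (adjusted p from 0.0630 to 0.136, limma) and Plod2 (0.0654 to 0.182) missed the threshold whichever library was left out, P4ha2 missed it without any library but Col6a1+ replicate 1 (0.108 to 0.194), and Aldoc without any Col6a1− library (0.0509 to 0.0902). The log2 fold changes stayed between 1.65 and 2.26 for P4ha1, 1.34 and 1.78 for Plod2, 1.64 and 2.22 for P4ha2, and −3.44 and −2.94 for Aldoc. Plod2 and P4ha2 missed it with a pseudocount of 0.1 as well (0.0658 and 0.0590, limma), and Plod2 with limma-voom (0.0599) and with libraries scaled to equal sums (0.0539). Slc2a1, the glucose transporter GLUT1, and Vegfa, the main vascular growth factor, are named here as familiar targets although neither passed. Slc2a1 had 301, 401 and 425 normalized counts against 487, 648 and 679 (adjusted p = 0.270 by limma), lower in every Col6a1+ library, and Vegfa had a log2 fold change of 0.46 (adjusted p = 0.595 by limma).

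**Figure D4:**
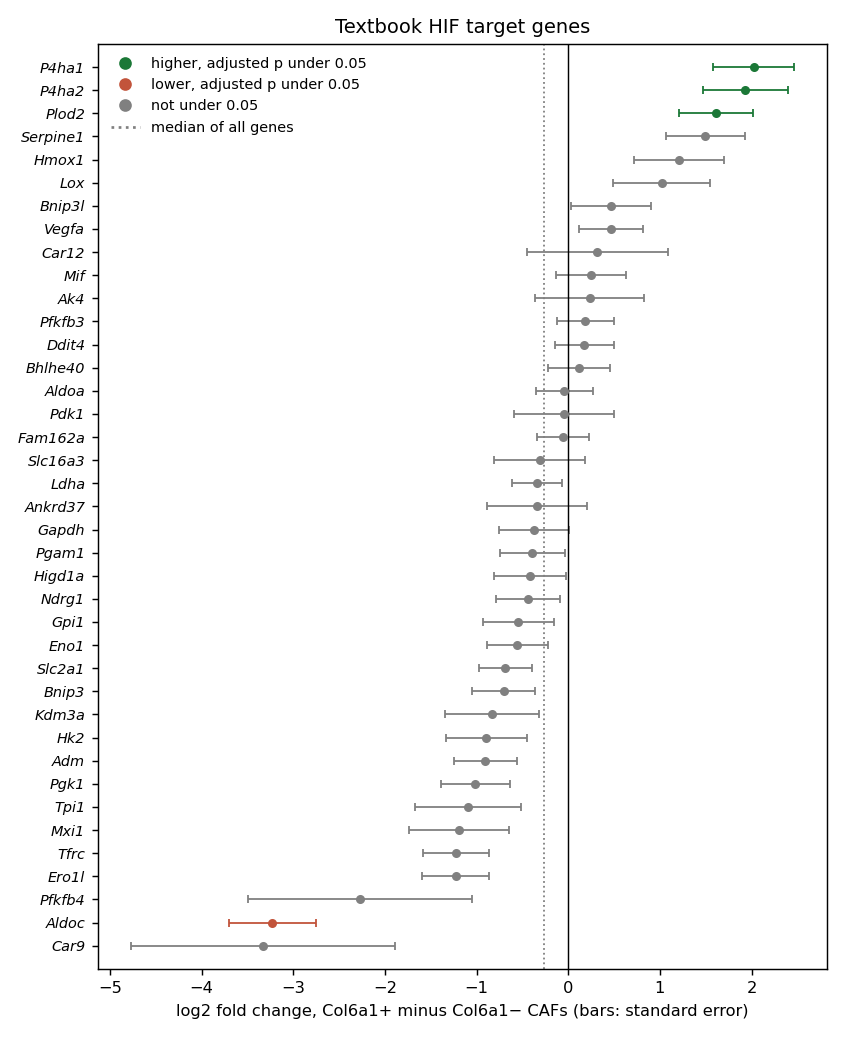
Log2 fold change (Col6a1+ over Col6a1− CAFs) of the 39 HIF target genes tested, sorted by size, with bars of 1 standard error and the 4 genes at an adjusted p under 0.05 in colour; the dotted line marks the median of all genes tested (−0.27). Genes above and below 0 number 14 and 25, and P4ha1, P4ha2 and Plod2 stand on the positive side and Aldoc on the negative side.

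The windows from 250 bases before to 50 after a gene start (RefSeq, GRCm38.p6) were searched for the HIF core motif, ACGTG or GCGTG, on both strands, so that a CACGTG counts on each strand. Of the 8 members with a window (all but Epas1), 6 held a match (75.0%), against 46.7% of 27025 genes and 43.8% of 32851 windows; of the 32 target genes with a window 29 did (90.6%). Matches depend on base composition, which was not matched here. Egln2 held 6 matches in 1 window, Hif1a 3, Egln1 and Hif3a 2 each, and Arnt and Egln3 1 each, while the windows of Hif1an and Vhl held none of these letters. The first window below is that of the α subunit that did not differ (Hif1a, chr12:73907617-73907916, plus strand), and the others are those of a target that rose (P4ha2, chr11:54100674-54100973, plus strand) and of the target that fell (Aldoc, chr11:78322823-78323122, plus strand). Capitals mark the core matches, of which P4ha2 holds 4 and Aldoc 3.
Hif1a: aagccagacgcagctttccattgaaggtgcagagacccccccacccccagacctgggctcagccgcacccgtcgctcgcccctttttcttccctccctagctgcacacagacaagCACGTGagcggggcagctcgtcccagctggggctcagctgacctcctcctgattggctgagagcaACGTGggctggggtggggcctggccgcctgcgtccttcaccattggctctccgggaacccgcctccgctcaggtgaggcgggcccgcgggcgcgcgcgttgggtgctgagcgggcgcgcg
P4ha2: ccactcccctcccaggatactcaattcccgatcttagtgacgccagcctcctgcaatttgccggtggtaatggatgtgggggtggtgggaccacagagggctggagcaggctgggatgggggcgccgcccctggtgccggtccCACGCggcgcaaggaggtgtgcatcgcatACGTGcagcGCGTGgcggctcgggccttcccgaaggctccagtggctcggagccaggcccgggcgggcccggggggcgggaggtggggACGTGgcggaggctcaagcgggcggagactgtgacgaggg
Aldoc: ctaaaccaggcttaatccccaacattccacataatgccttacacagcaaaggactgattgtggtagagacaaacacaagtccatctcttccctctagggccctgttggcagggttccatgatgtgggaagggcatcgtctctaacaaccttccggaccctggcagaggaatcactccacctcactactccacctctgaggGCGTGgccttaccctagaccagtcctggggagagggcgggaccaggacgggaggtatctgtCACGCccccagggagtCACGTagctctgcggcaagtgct

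The respiratory subunit genes with a form known to be linked to low oxygen were read as pairs. Cox4i2, the alternative subunit of cytochrome c oxidase, had 150, 94 and 122 normalized counts in Col6a1+ CAFs against 0, 2 and 3 in Col6a1− CAFs (adjusted p = 0.00338 by limma), and Ndufa4l2 had 317, 158 and 185 against 1, 5 and 0 (adjusted p = 0.00190 by limma). Higd1b, a mitochondrial gene of the HIG1 domain family, had 33, 140 and 144 against 0 in all 3 Col6a1− libraries (adjusted p = 0.00435 by limma), at least 35.2-fold higher when 3 counts per library are taken as the floor. All 3 were thus near or at 0 in Col6a1− CAFs. The mural markers differed in the same direction, with 8 of 8 called higher and a median log2 fold change of 4.93. The part of mural cells or of low oxygen in these differences was not tested. The other genes of the pairs, Cox4i1, Ndufa4 and Higd1a, did not pass the test. Of the 6 genes, 3 were called higher and 0 lower (2.66% and 1.96% of all genes). At an unadjusted p under 0.05, 1 was lower (9.4% of all genes), and 0 were lower by limma-voom. Higd1a is itself on the list of HIF target genes above (log2 fold change −0.42, adjusted p = 0.639 by limma). Its pair with Higd1b therefore does not set a low-oxygen form against an ordinary one. When replicate numbers were blocked, limma gave an adjusted p of 0.0659 for Cox4i2, 0.0612 for Ndufa4l2 and 0.0618 for Higd1b; over genes with a mean of at least 10 counts the blocked values were 0.00470, 0.00283 and 0.00586, and all 3 passed. Without Col6a1− replicate 1 the adjusted p by limma was 0.0503, 0.0717 and 0.0749 in the same order, and without Col6a1− replicate 3 it was 0.0631 for Higd1b. Over the alternatives that tested them the largest values were 0.0659, 0.0717 and 0.0749. The filter of at least 10 counts in every library left all 3 genes out, since they were near or at 0 in Col6a1− CAFs.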

How the data were processed

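Lineage-negative cells of colonic adenomas were compared as 3 Col6a1+ (GFP+) and 3 Col6a1− (Tomato+) CAF libraries, grouped by the sample titles. Per the labels, 3′ mRNA libraries (QuantSeq) were sequenced on an Ion Proton and processed with TopHat2, Bowtie2 and DESeq on mm10. The authors deposited normalized counts on a linear and a log2 scale, and a signal column that equals the normalized count divided by the length of the gene model. Raw read counts and sequencing depth were not used here, so no counting interval is given, and the floor of 3 for a 0 is taken on the scaled counts. Their own comparison columns, which hold p-values, false discovery rates and log2 fold changes, were not used.

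The test was limma 3.58.1 (R 4.3.3), an empirical Bayes linear model with a variance trend, on log2 of the normalized count plus 1, over the 26402 genes with at least 1 count, with Benjamini-Hochberg adjustment over all of them and a threshold of 0.05. The script was tested on simulated data. A count test was not run, since the values were already scaled. Alternatives were another library scaling, filters at 10 counts, limma-voom, array quality weights, a pseudocount of 0.1, an unadjusted threshold, leaving out each library in turn (with the gene filter applied again), and the replicate number as a block. Deviations from the group means over 13515 genes were correlated between Col6a1+ and Col6a1− libraries. Those of the same number gave 0.245, 0.125 and 0.144, all above 0.1. Libraries of different numbers gave −0.245 to 0.150, and the highest of these lay above 0.125 and 0.144. The paper describes tumor pools and a sort of adenoma cells into GFP+ and Tomato+ fractions. It does not state whether libraries of the same number came from the same pool. The correlations do not settle whether the numbers are pairs. Only the blocked fits used the numbers as pairs. The main fit, with its p-values and intervals, took the libraries as unpaired.

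The members, the gene lists and the tests were chosen with earlier results of these data known. Genes named were all members, overlapping genes, up to 5 called genes per direction of each list, and the 3 genes most like a called member; exceptions are marked in the text. Gene names and coordinates are those of the deposited table, and promoter sequences come from RefSeq (GRCm38.p6).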

Additional observations from a re-analysis of the deposited data

How the results depend on the processing

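The log2 fold change of Epas1 stayed above 0 under every alternative run (3.19 to 3.79). Its call was lost with the replicate block (adjusted p = 0.0612, limma) and without Col6a1− replicate 1 (adjusted p = 0.0609, limma). Over all genes, 703 were called higher and 517 lower. With the replicate number as a block 0 were called in either direction (smallest adjusted p 0.0612), although 1851 higher and 2567 lower genes had an unadjusted p under 0.05; the members called then fell from 1 to 0. The pairing by replicate number over genes with a mean of at least 10 counts gave 981 higher and 871 lower. Leaving out 1 library gave 11 to 453 higher, 1 to 442 lower and 0 to 1 members higher, with fewer samples in the fit. The criterion of an unadjusted p with a log2 change over 1 gave 1607 higher and 2273 lower. The count of lower genes also moved with limma-voom (798), array quality weights (969) and a pseudocount of 0.1 (336); the cause was not tested. With no gene called under the block, the calls on Epas1, on the target and isoform genes and on the cell type markers were all lost there, and no gene gained one; over genes with a mean of at least 10 counts the blocked fit kept the calls on Epas1 and on the target and isoform genes named.

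The sign of the log2 fold change turned for Hif1a when libraries were rescaled to equal sums (−0.0278) and when 1 library was left out (−0.17 to 0.23), for Egln2 with array quality weights (0.0228) and 1 library left out (−0.25 to 0.27), and with 1 library left out for Hif3a (−1.19 to 0.17, fitted to counts too low to be read as a fold) and Vhl (−0.35 to 1.30). None of these was called. With 3 pools a group, changes of the other members within the intervals given in the report are not excluded. These intervals do not give the smallest change that could be called.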
